A study of Mus musculus with 6 samples.

Results

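Integrins are the receptors through which cells hold on to their matrix, and focal adhesions are the plaques that tie the bound receptors to actin. The 36 genes described here are 12 integrin alpha subunits, 8 beta subunits, the beta-like protein Itgbl1 and 15 intracellular components of focal adhesions. They were taken by gene name from the 49548 genes of the deposited table, and all 36 have a row. The labels give colon tumors of C57/BL6 mice that carried Col6a1-cre and Rosa26-mTmG and went through the AOM/DSS model, in which the carcinogen azoxymethane and the irritant dextran sodium sulfate produce adenomas in an inflamed colon. Cells without CD45, EpCAM, CD31 and Ter119 were sorted into a GFP+ population, called Col6a1+ CAFs (cancer-associated fibroblasts), and a Tomato+ population, called Col6a1- CAFs. Each population had 3 libraries of 3′ mRNA sequencing, and the study's methods describe each sample as a pool of tumors from several animals, so that single animals cannot be told apart. Mice of both populations had the same treatment and carried Cre and the reporter, and no untreated or Cre-free group is analysed here.

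The Cre is driven by Col6a1 and is known to be active in PDGFRa-high fibroblasts and perivascular cells of the colon. The Tomato+ population is therefore every remaining cell that passed the sort, and not a single cell type. All values are normalized counts, that is, reads per gene divided by the size factor of the library, and a log2 fold change is the mean log2(normalized count + 1) of Col6a1+ CAFs minus that of Col6a1- CAFs, with its standard error (SE). Because 3′ sequencing reads 1 end of a transcript and no length scaling was applied, levels are compared between libraries and not between genes. In bulk libraries, fewer cells of a type and less RNA per cell cannot be told apart.

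An integrin is a pair of 1 alpha and 1 beta chain, and the pair decides what it binds. Receptors with the beta1 chain bind collagens, laminins and fibronectin, those with alpha v read the RGD motif of fibronectin, vitronectin and latent TGFβ, and alpha6 with beta4 anchors epithelial cells to laminin through hemidesmosomes. Inside the cell, talin and kindlin bind the beta tail and switch the receptor on, the ILK, PINCH and parvin complex and vinculin couple it to actin, and focal adhesion kinase, paxillin and p130Cas carry the signal onward. In fibroblasts and pericytes these plaques bear the tension of the matrix and of the vessel wall.

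Each library summed to 3039152 to 3425249 normalized counts, and 14530 to 20511 genes were detected, with the fewest in Col6a1+ replicate 1. That library had at most 3 normalized counts for 4.66% of the 8801 genes that reached 20 in each of the other libraries, against at most 0.0872% in any other library. Itga5, Fermt1 and Tln2 were among those genes. The 10 mural cell markers summed to between 46341 and 65755 in Col6a1+ libraries and to between 771 and 2645 in Col6a1- libraries. The 8 fibroblast markers summed to between 39684 and 42986 against between 7003 and 14197. The label of both populations is fibroblasts, and both carried fibroblast markers. Beside these, Col6a1+ CAFs carried mural cell markers. In each Col6a1- library the epithelial marker sum, given next, was larger than the fibroblast marker sum. The label thus does not cover all transcripts in those libraries. Despite the EpCAM gate, the 10 epithelial markers summed to between 5750 and 6474 in Col6a1+ libraries and to between 20190 and 32330 in Col6a1- libraries, and Epcam itself had between 3107 and 4129 in Col6a1- libraries. Leukocyte markers were low in both, between 74 and 85 against between 220 and 391, and no leukocyte marker passed the test. Endothelial markers summed to 1091 to 1504 against 441 to 858, but Esam made up most of the Col6a1+ sum, and the other 9 summed to 148 to 379 against 387 to 765, each with a negative log2 fold change.

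**Figure D1:**
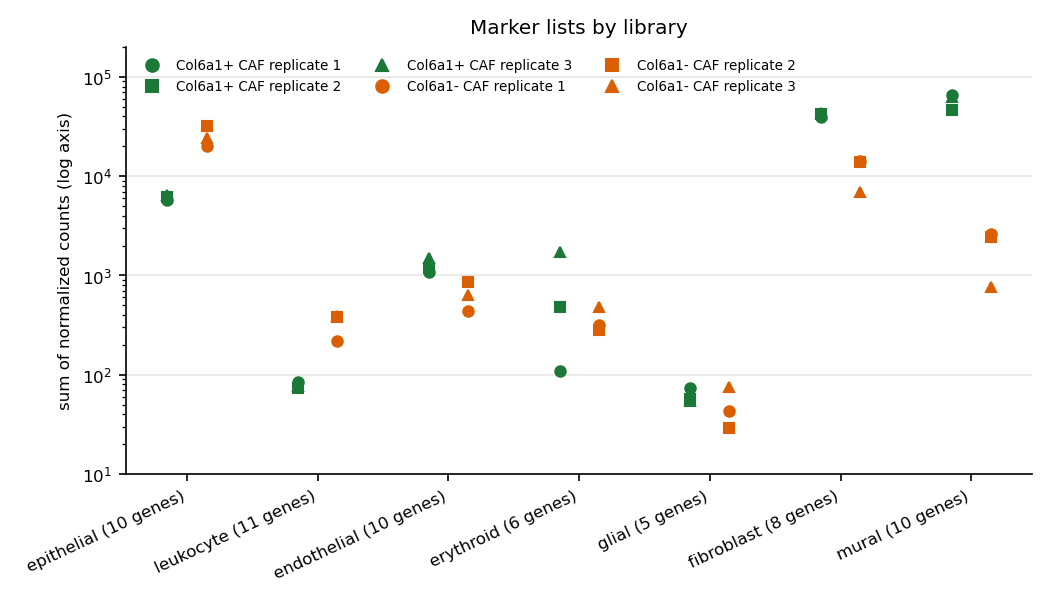
Sum of normalized counts (log axis) of 7 marker lists in each of the 6 libraries, green for Col6a1+ CAFs and orange for Col6a1- CAFs, with the symbol giving the replicate. Mural sums are at least 46341 in the Col6a1+ libraries and at most 2645 in the Col6a1- libraries, while epithelial sums are at least 20190 in the Col6a1- libraries and at most 6474 in the others.

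Of the 36 genes, 35 had a normalized count and were tested, and 31 averaged 10 or more over the libraries. In limma over 26402 genes, 13 were higher and 2 were lower in Col6a1+ CAFs at a Benjamini-Hochberg adjusted p under 0.05, where 2.66% of all genes tested were higher and 1.96% were lower. Among the 13515 genes that averaged 10 or more normalized counts, called expressed genes below, those shares were 5.15% and 3.67%. The genes that were higher are the alpha subunits Itga1, Itga4, Itga7 and Itga10, the beta subunits Itgb1, Itgb3 and Itgb5, and the plaque components Tln1, Fermt2, Ilk, Vcl, Ptk2 and Tns1. The genes that were lower are Itga6 and Itgb4. The median log2 fold change of the 35 tested genes was 0.67, beside -0.27 for all genes tested. Among the expressed genes these medians were 1.49 and -0.15. The median of the 35 was 1.35 without Col6a1+ replicate 1, 1.28 without Col6a1- replicate 2 and 1.03 without Col6a1- replicate 3. It was 0.59 without Col6a1+ replicate 2, 0.66 without Col6a1+ replicate 3 and 0.58 without Col6a1- replicate 1. In 18 genes the lowest Col6a1+ library exceeded the highest Col6a1- library and in 7 the reverse held. Of all genes tested 7.91% and 11.6% did so, and of the expressed genes 14.2% and 17.6%.

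The calls changed with the replicate block and with the set of genes tested. With the replicate number as a block over all 26402 genes, none of the 36 genes was called. In that fit 0% of all genes were called higher and 0% lower, so the loss was not particular to these genes. The adjusted p of the 15 genes then lay between 0.0612 and 0.146, and 17 higher and 7 lower genes had an unadjusted p under 0.05, as did 7.01% and 9.72% of all genes. When that block was fitted to the expressed genes alone, all 15 were called again, in a total of 15 higher and 4 lower, where 7.26% and 6.44% of expressed genes were called. Without Col6a1+ replicate 1, none was called over all genes, and 0% of all genes were called higher or lower. Of the 36, 18 higher and 7 lower had an unadjusted p under 0.05, beside 9.22% and 10% of all genes. Over the expressed genes without that library, a fit added after the data were seen, all 15 kept their call in a total of 17 higher and 4 lower, where 7.98% and 8.28% of expressed genes were called.

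**Figure D2:**
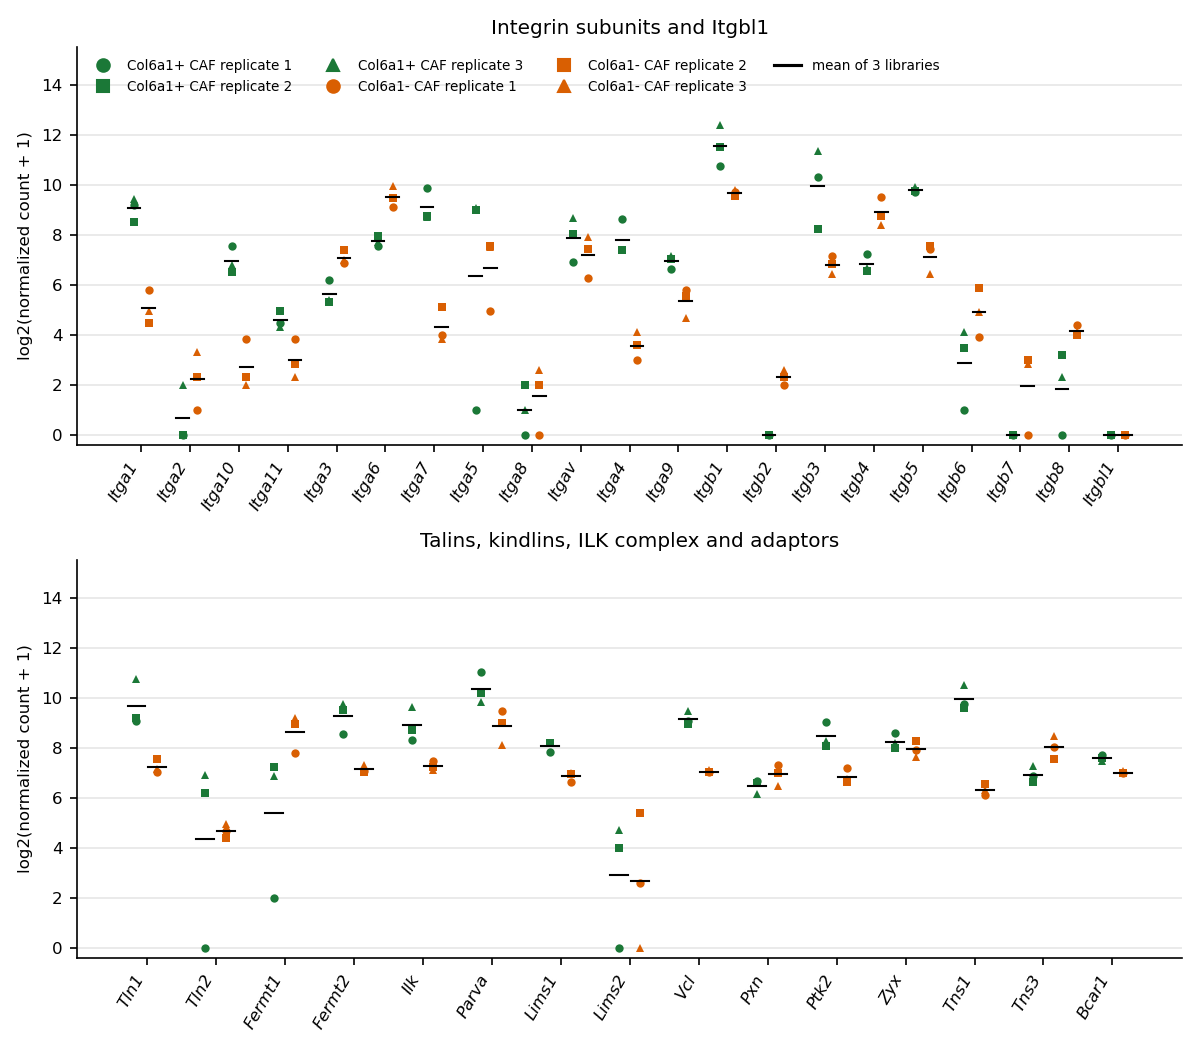
Level of each of the 36 genes as log2(normalized count + 1) in the 6 libraries, with integrin subunits in the upper panel and intracellular components in the lower one. Points are libraries (green, Col6a1+ CAFs; orange, Col6a1- CAFs; the symbol gives the replicate) and bars are means of 3 libraries. The groups are apart for Itga1, Itga7, Itga10, Itga4, Itgb5 and Tns1, and Col6a1+ replicate 1 lies alone near 0 for Itga5 and Tln2.

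Among the 4 collagen-binding alpha subunits, Itga1 and Itga10 were higher in Col6a1+ CAFs. Itga1, which pairs with beta1 to bind basement membrane collagen IV as well as fibrillar collagen, is ENSMUSG00000042284 at chr13:114958079-115101964 (mm10, minus strand). It had 582, 366 and 688 normalized counts in Col6a1+ replicates 1, 2 and 3, against 54, 21 and 30 in Col6a1- replicates 1, 2 and 3. The lowest Col6a1+ library was thus far above the highest Col6a1- library. The means were 545 ± 164 and 35 ± 17.1 (SD, n = 3), and the log2 fold change was 3.98 (SE 0.43, limma adjusted p = 0.00131). The gene shares its strand and part of its span with Pelo, which had between 910 and 1123 against between 235 and 350, so reads of the pair may not be fully separated. Itga2, the other collagen receptor, which lies beside Itga1 on chromosome 13 and is typical of epithelium and platelets, had 0, 0 and 3 against 1, 4 and 9. Its values were close to the level of 3 counts that a value of 0 allows.

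Itga10, a collagen receptor best known from cartilage, is ENSMUSG00000090210 at chr3:96645584-96664519 (mm10, plus strand). Its counts were 184, 89 and 110 in Col6a1+ libraries and 13, 4 and 3 in Col6a1- libraries, with no overlap. The log2 fold change was 4.23 (SE 0.67, limma adjusted p = 0.00656), from 128 ± 49.9 to 6.67 ± 5.51 (SD, n = 3) in Col6a1- CAFs. Gm42957, on the same strand within its span, had no more than 15 in any library. Itga11, the fibrillar collagen receptor of fibroblasts, had 21, 30 and 19 against 13, 6 and 4. Its libraries did not overlap, but it did not pass the test (log2 fold change 1.60, SE 0.80, limma adjusted p = 0.368). With the replicate block, the adjusted p of both Itga1 and Itga10 was 0.0612 over all genes, and 0.00116 and 0.00448 over the expressed genes. Over all alternatives it ranged from 0.000546 to 0.14 for Itga1 and from 0.00421 to 0.17 for Itga10.

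The 3 laminin-binding alpha subunits went separate ways. Itga7, the laminin receptor of muscle and of vascular mural cells, is ENSMUSG00000025348 at chr10:128933813-128958277 (mm10, plus strand). It had 920, 429 and 415 normalized counts in Col6a1+ libraries and 15, 33 and 13 in Col6a1- libraries. This was the largest log2 fold change among the 36 genes, 4.80 (SE 0.48, limma adjusted p = 0.000881), with means of 588 ± 288 and 20.3 ± 11 (SD, n = 3). The mural marker sum moved the same way, by 5.08 on the log2 scale, and its part in the result was not tested. Col6a1+ replicate 1 had the highest value for Itga7, and without that library the log2 fold change was 4.43. Mettl7b, which meets the end of Itga7 on the opposite strand, had 13 to 35 against 13 to 86.

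Itga6, the laminin receptor of epithelial, endothelial and stem cells, is ENSMUSG00000027111 at chr2:71745616-71858416 (mm10, plus strand). It had 185, 247 and 209 in Col6a1+ libraries and 550, 711 and 981 in Col6a1- libraries, without overlap. It was lower in the GFP+ population (log2 fold change -1.77, SE 0.31, limma adjusted p = 0.0109). Its partner in hemidesmosomes, Itgb4 (ENSMUSG00000020758, chr11:115974709-116008412, mm10, plus strand), was lower too, with 150, 92 and 100 against 734, 427 and 336. Its log2 fold change was -2.07 (SE 0.38, limma adjusted p = 0.0125). Both subunits of the alpha6 and beta4 receptor were therefore lower in Col6a1+ CAFs. Itga3, the third laminin receptor, also typical of epithelium, had 71, 39 and 41 against 114, 167 and 126, and did not pass the test (log2 fold change -1.45, SE 0.42, limma adjusted p = 0.0842). Its adjusted p was 0.0424 over the genes with at least 10 in every library and 0.179 with the replicate block over all genes, in a range of 0.0123 to 0.25.

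The epithelial marker list moved with these subunits. Its sum differed by -2.04 on the log2 scale, 7 of its 10 genes were lower in Col6a1+ CAFs, and the genes ranged from -3.24 to -0.29. Cdh1, encoding E-cadherin, had 2999, 2344 and 2580 in Col6a1+ libraries and 10493, 15452 and 11963 in Col6a1- libraries, and none of the defining epithelial markers was at 0 in either population. The part of epithelial transcripts in the values of Itga6, Itgb4 and Itga3 was not tested. With the replicate block, the adjusted p was 0.0612 for Itga7, 0.0704 for Itga6 and 0.0612 for Itgb4 over all genes, and 0.00156, 0.00549 and 0.0038 over the expressed genes. Their ranges over all alternatives were 0.000272 to 0.14, 0.00549 to 0.17 and 0.0038 to 0.193.

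None of the 3 RGD-binding alpha subunits passed the test. Itgav, the alpha v chain that pairs with beta1, beta3, beta5, beta6 and beta8, had 118, 260 and 409 against 76, 169 and 239. The groups overlapped and the log2 fold change was 0.67 (SE 0.53, limma adjusted p = 0.603). Itga5, the classical fibronectin receptor chain, had 1, 505 and 530 in Col6a1+ libraries and 30, 188 and 179 in Col6a1- libraries. The sign of its value changed with the libraries used. Its log2 fold change was -0.32 (SE 1.77, limma adjusted p = 0.935) with all libraries. Without Col6a1+ replicate 1 it was 2.35 (limma adjusted p = 0.256 over all genes). Itga5 was at 0.12 without Col6a1- replicate 2 and at 0.09 without Col6a1- replicate 3. Its adjusted p ranged from 0.049 to 1.0 over all alternatives. Itga8, known from smooth muscle and mesangium, had 0, 3 and 1 against 0, 3 and 5, which is at the limit of detection.

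Of the alpha4 and alpha9 pair, which bind VCAM-1, fibronectin and tenascin without the classical RGD site, Itga4 was higher in Col6a1+ CAFs. Itga4 is ENSMUSG00000027009 at chr2:79255426-79333123 (mm10, plus strand) and is known from leukocytes and from developing mural cells. It had 393, 166 and 165 normalized counts in Col6a1+ libraries and 7, 11 and 16 in Col6a1- libraries. No library of 1 group came near the other, with means of 241 ± 131 and 11.3 ± 4.51 (SD, n = 3). The log2 fold change was 4.24 (SE 0.54, limma adjusted p = 0.0022). Cerkl, which overlaps Itga4 on the opposite strand, had no more than 33 in any library. The leukocyte marker Ptprc, encoding CD45, was at 0, 2 and 0 in Col6a1+ libraries and at 7, 8 and 3 in Col6a1- libraries and no marker of the leukocyte list passed the test. The part of leukocytes in the values of Itga4 was not tested. Itga9 had 98, 129 and 142 against 54, 46 and 24, with no overlap, but did not pass the test (log2 fold change 1.61, SE 0.45, limma adjusted p = 0.077). Its adjusted p was 0.0367 over the genes with at least 10 in every library and 0.181 with the replicate block over all genes, in a range of 0.025 to 0.282. Itga9 overlaps, on the opposite strand, the pseudogene Gm10157, with 196, 234 and 202 against 147, 248 and 348, and the antisense gene Gm2415, with 49, 29 and 28 against 12, 2 and 14, so its values are uncertain. With the replicate block, the adjusted p of Itga4 was 0.0697 over all genes and 0.00382 over the expressed genes, in a range of 0.001 to 0.14.

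Among the 8 beta subunits, Itgb1, Itgb3 and Itgb5 were higher and Itgb4, given above, was lower. Itgb1, the common partner of most of the alpha chains named so far, is ENSMUSG00000025809 at chr8:128685654-128733200 (mm10, plus strand). It had 1725, 2890 and 5387 in Col6a1+ libraries and 834, 738 and 869 in Col6a1- libraries. The Col6a1+ libraries were widely spread but all lay above the Col6a1- libraries, which were close together (3334 ± 1871 and 814 ± 67.8, SD, n = 3). The log2 fold change was 1.88 (SE 0.38, limma adjusted p = 0.0208).

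Itgb3, which with alpha v forms the vitronectin receptor, is ENSMUSG00000020689 at chr11:104608000-104670476 (mm10, plus strand). It had 1256, 300 and 2608 against 142, 111 and 84. Col6a1+ replicate 2 was several times lower than the other Col6a1+ libraries and still above every Col6a1- library. The log2 fold change was 3.17 (SE 0.64, limma adjusted p = 0.0201) and lay between 2.47 and 4.03 when 1 library was left out. Itgb5, the other vitronectin-binding partner of alpha v, is ENSMUSG00000022817 at chr16:33829665-33949153 (mm10, plus strand). Its 836, 858 and 968 counts in Col6a1+ libraries were the most even among the integrins that were higher, against 169, 183 and 84 in Col6a1- libraries. Its log2 fold change was 2.68 (SE 0.35, limma adjusted p = 0.00232).

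The block gave Itgb1, Itgb3 and Itgb5 adjusted p values of 0.102, 0.129 and 0.0651 over all genes, and of 0.00863, 0.0109 and 0.00281 over the expressed genes. Their ranges over all alternatives were 0.00247 to 0.272, 0.00514 to 0.358 and 0.00119 to 0.149. The remaining beta subunits did not pass the test and had low counts. Itgb2, the leukocyte beta chain, was at 0 in every Col6a1+ library and at 3, 4 and 5 in the others (limma adjusted p = 0.0895). Itgb7, the gut-homing leukocyte chain, was at 0 in every Col6a1+ library and at 0, 7 and 6 (limma adjusted p = 0.295). Both belong to leukocytes, whose marker sum was low in all libraries.

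Itgb6, the epithelial chain that with alpha v activates latent TGFβ, had 1, 10 and 16 in Col6a1+ libraries and 14, 58 and 29 in Col6a1- libraries (limma adjusted p = 0.35). Itgb8, the other TGFβ-activating chain, had 0, 8 and 4 against 20, 15 and 16, with no overlap (log2 fold change -2.33, limma adjusted p = 0.312). Itgbl1, a secreted protein that resembles the stalk of beta subunits, was at 0 in all 6 libraries and was not tested.

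**Figure D3:**
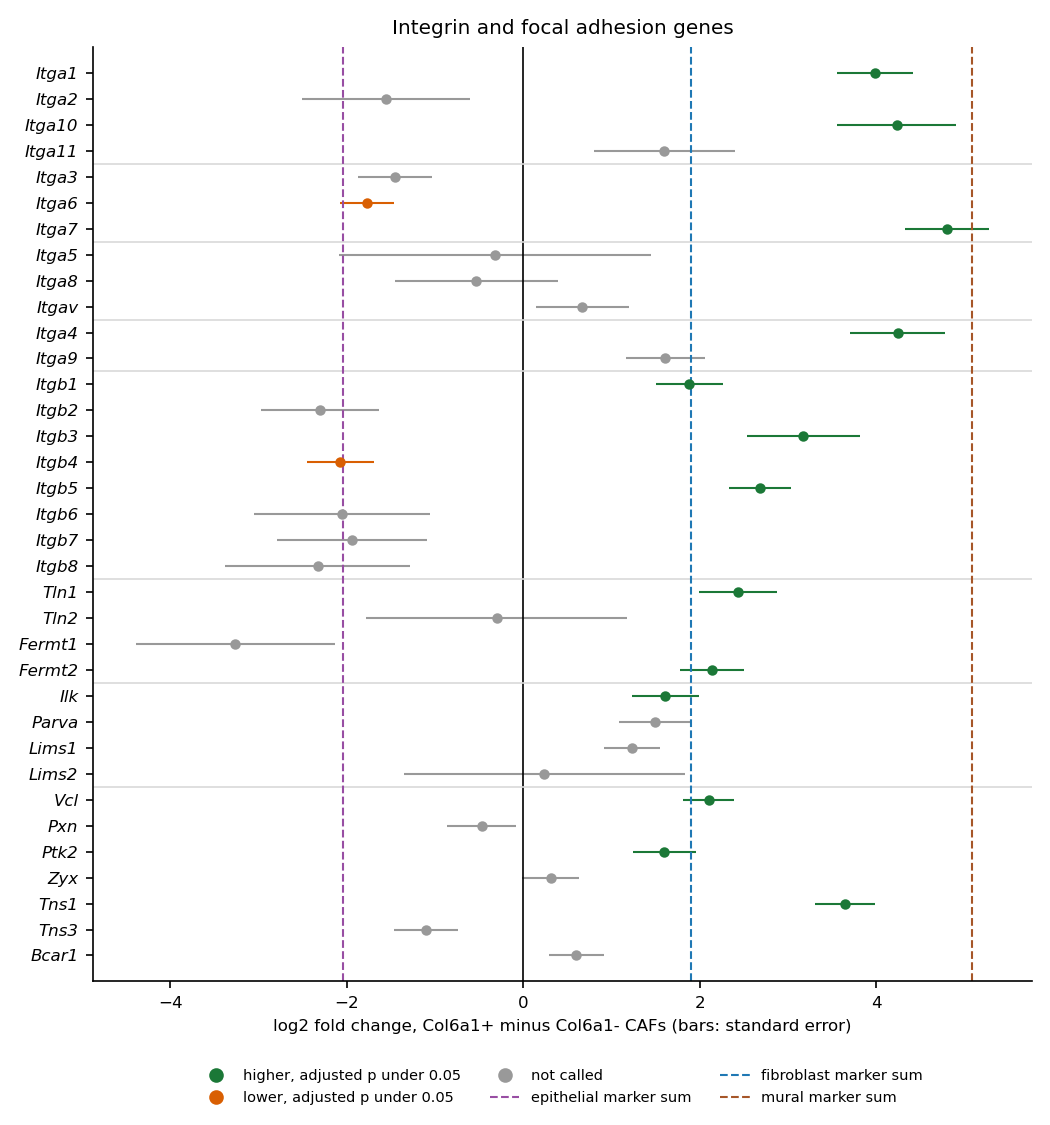
Log2 fold change of the 35 tested genes, Col6a1+ minus Col6a1- CAFs, with bars for the standard error, grouped by role; green and orange mark an adjusted p under 0.05. Dashed lines give the change in the summed markers of epithelium (-2.04), fibroblasts (1.90) and mural cells (5.08). All 13 genes that were higher lie left of the mural line, and 10 lie right of the fibroblast line.

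Talin and kindlin, the activators of integrins, each had 1 of 2 genes higher in Col6a1+ CAFs. Tln1, the widespread talin, is ENSMUSG00000028465 at chr4:43531519-43562691 (mm10, minus strand). It had 531, 575 and 1721 against 129, 183 and 140, so Col6a1+ replicate 3 stood above the other Col6a1+ libraries and the groups did not overlap. The log2 fold change was 2.43 (SE 0.44, limma adjusted p = 0.0125). Creb3, which overlaps Tln1 on the opposite strand, had between 138 and 176 in Col6a1+ and between 79 and 211 in Col6a1- libraries. Tln2, the talin of muscle and brain, had 0, 72 and 118 against 24, 20 and 30. Its log2 fold change was -0.30 with all libraries (limma adjusted p = 0.927) and 1.88 without Col6a1+ replicate 1 (limma adjusted p = 0.0827), within a range of 0.0202 to 1.0 over all alternatives.

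Fermt2, or kindlin-2, the kindlin of mesenchymal cells, is ENSMUSG00000037712 at chr14:45458792-45530118 (mm10, minus strand). It had 374, 731 and 859 in Col6a1+ libraries and 131, 129 and 159 in Col6a1- libraries. All Col6a1+ libraries were above the others, with a log2 fold change of 2.14 (SE 0.36, limma adjusted p = 0.00887). Fermt1, or kindlin-1, the kindlin of epithelium, had 3, 150 and 116 against 217, 487 and 581. The pair of kindlins thus had opposite signs, but Fermt1 did not pass the test (log2 fold change -3.26, SE 1.13, limma adjusted p = 0.155), and without Col6a1+ replicate 1 its log2 fold change was -1.57. Its adjusted p was 0.178 with the replicate block over all genes and 0.0222 with the block over the expressed genes, in a range of 0.0222 to 0.798. The epithelial markers again moved with Fermt1, and their part was not tested. For Tln1 and Fermt2 the block gave 0.102 and 0.0697 over all genes and 0.007 and 0.00427 over the expressed genes, in ranges of 0.00471 to 0.241 and 0.00124 to 0.171.

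In the ILK, PINCH and parvin complex, which joins beta tails to actin, all 4 genes had a positive log2 fold change and 1 passed the test. Ilk, the pseudokinase scaffold, is ENSMUSG00000030890 at chr7:105736592-105742925 (mm10, plus strand). It had 314, 417 and 797 against 174, 150 and 138, with a log2 fold change of 1.61 (SE 0.38, limma adjusted p = 0.0369). Taf10, on the opposite strand of the same locus, had between 16 and 86 in Col6a1+ libraries and between 86 and 131 in Col6a1- libraries. Parva, or alpha-parvin, had 2082, 1149 and 897 against 700, 501 and 275. Its libraries did not overlap, and its log2 fold change was 1.49 (SE 0.41, limma adjusted p = 0.0734). Lims1, or PINCH-1, was even within each group, with 227, 293 and 293 against 97, 121 and 126, and a log2 fold change of 1.23 (SE 0.32, limma adjusted p = 0.0567). Lims2, or PINCH-2, had 0, 15 and 25 against 5, 41 and 0 with a log2 fold change of 0.24 that turned negative without Col6a1+ replicate 2 (-0.31), Col6a1+ replicate 3 (-0.66) or Col6a1- replicate 3 (-1.09). With the block over the expressed genes, Ilk, Parva and Lims1 had adjusted p values of 0.0229, 0.00648 and 0.0267, and over all genes 0.146, 0.068 and 0.102. The ranges over all alternatives were 0.00731 to 0.293 for Ilk, 0.00648 to 0.458 for Parva and 0.0176 to 0.178 for Lims1.

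Among the 7 adaptors, kinases and actin linkers, Vcl, Ptk2 and Tns1 were higher in Col6a1+ CAFs. Vcl encodes vinculin, which reinforces the bond of talin to actin under tension, and is ENSMUSG00000021823 at chr14:20929433-21033673 (mm10, plus strand). It had 530, 485 and 695 in Col6a1+ libraries and 128, 128 and 136 in Col6a1- libraries. Its log2 fold change of 2.10 had the smallest standard error among the 15 genes that passed (SE 0.29, limma adjusted p = 0.00351), with means of 570 ± 111 and 131 ± 4.62 (SD, n = 3). Ap3m1, on the opposite strand of the same locus, had 27 to 92 against 73 to 102. Tns1, a tensin of fibrillar adhesions and smooth muscle, is ENSMUSG00000055322 at chr1:73910231-74124449 (mm10, minus strand). It had 862, 773 and 1451 against 67, 91 and 79, and its adjusted p was the lowest of the 36 genes (log2 fold change 3.64, SE 0.34, limma adjusted p = 0.000662).

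Ptk2, focal adhesion kinase, is ENSMUSG00000022607 at chr15:73205105-73423191 (mm10, minus strand). It had 524, 263 and 305 in Col6a1+ libraries and 143, 97 and 106 in Col6a1- libraries, with no overlap, and a log2 fold change of 1.60 (SE 0.36, limma adjusted p = 0.0326). With the replicate block over all genes the adjusted p was 0.0612 for Vcl, 0.0612 for Tns1 and 0.0741 for Ptk2, and with the block over the expressed genes it was 0.00308, 0.00113 and 0.0101. The ranges over all alternatives were 0.00197 to 0.14, 0.000183 to 0.14 and 0.0101 to 0.224.

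The adaptors that work beside focal adhesion kinase did not pass the test. Pxn, paxillin, had 99, 95 and 69 against 159, 126 and 87, with overlap (log2 fold change -0.47, limma adjusted p = 0.603). Zyx, zyxin, a sensor of tension on actin, had 377, 250 and 288 against 240, 303 and 195 (log2 fold change 0.31, limma adjusted p = 0.642). Bcar1, p130Cas, varied little within each group, with 208, 193 and 176 against 124, 124 and 132. Its groups did not overlap, but the log2 fold change was only 0.60 (SE 0.31, limma adjusted p = 0.398). Tns3, another tensin, had 115, 98 and 153 against 260, 187 and 353, again without overlap (log2 fold change -1.10, SE 0.36, limma adjusted p = 0.133). Its adjusted p was 0.0413 with the block over the expressed genes, in a range of 0.0413 to 0.33.

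Vcl and Fermt2 are the only genes among those that were higher whose RefSeq promoter window held a CArG box, the motif bound by serum response factor in cytoskeletal and smooth muscle genes. Windows of 300 bases, from 250 before to 50 after a start on GRCm38.p6, were at hand for 26 of the 36 genes, and for 10 of the 13 that were higher. The 250 bases before the start are shown to place these motifs, 5′ to 3′ on the strand of the gene, with capitals for a CArG box and, in Vcl, also for a match to the MCAT motif CATTCC of TEAD factors, searched on both strands. The Vcl stretch is chr14:20929148-20929397 on the plus strand, with the CArG box at -227 to -218 and the MCAT match at -143 to -138 from the start. The Fermt2 stretch is chr14:45530066-45530315 on the minus strand, with the CArG box at -204 to -195.
Vcl: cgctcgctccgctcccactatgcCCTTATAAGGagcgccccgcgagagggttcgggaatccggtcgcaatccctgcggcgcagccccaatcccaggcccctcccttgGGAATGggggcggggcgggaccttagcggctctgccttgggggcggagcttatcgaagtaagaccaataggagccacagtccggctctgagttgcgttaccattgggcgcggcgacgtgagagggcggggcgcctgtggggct
Fermt2: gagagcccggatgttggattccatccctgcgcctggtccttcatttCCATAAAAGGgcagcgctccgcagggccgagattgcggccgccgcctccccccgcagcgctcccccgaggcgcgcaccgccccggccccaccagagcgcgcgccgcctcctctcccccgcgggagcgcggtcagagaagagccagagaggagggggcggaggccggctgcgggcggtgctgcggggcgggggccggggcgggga

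Among all 32851 RefSeq windows, 1.63% held a CArG box and 14.7% an MCAT match. These are shares of windows, while the counts that follow are of genes, and a gene may have several windows. Among the 10 higher genes with a window, 2 held a CArG box and 3 (Itga10, Itgb1 and Vcl) an MCAT match. Among the 15 genes with a window that were not called, 1 (Itgb6) held a CArG box and 0 an MCAT match, and neither of the lower genes had a window. These are matches of letters only, and no binding was measured.

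A further 65 genes of the integrin adhesome, that is, ligands, relatives and linkers, were listed apart from the 36 genes. Of the 64 tested, 17 were higher and 2 were lower in Col6a1+ CAFs in the same limma fit, and their log2 fold changes had a median of 0.40. Of all genes tested, 2.66% were higher and 1.96% lower, and of the expressed genes 5.15% and 3.67%. The 2 lists have no gene in common. By role, 7 of 16 ligands and surface partners, 6 of 17 actin linkers, 2 of 16 adaptors and kinases, 2 of 10 relatives of talin, kindlin and the ILK complex and 0 of 5 other integrin subunits were higher. The lower genes were both in the group of adaptors and kinases.

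Several genes that were higher encode ligands of the subunits described above. Vtn, vitronectin, the ligand of alpha v with beta3 or beta5, had 67, 130 and 168 in Col6a1+ libraries and 0, 7 and 0 in Col6a1- libraries (log2 fold change 5.84, SE 0.98, limma adjusted p = 0.00851), and with 2 libraries at 0 this fold depends on the pseudocount. Postn, periostin, also bound by alpha v integrins, had 1576, 1546 and 4653 against 236, 399 and 112 (log2 fold change 3.35, SE 0.52, limma adjusted p = 0.00613). Mfge8, a secreted RGD protein that bridges alpha v integrins to phosphatidylserine, had 5879, 4421 and 3174 against 930, 770 and 523 (log2 fold change 2.59, SE 0.33, limma adjusted p = 0.00214). In each of these ligands the groups did not overlap. Tnc, tenascin-C, a ligand of alpha9 and alpha v integrins, had 234, 313 and 450 against 59, 55 and 49 (log2 fold change 2.54, SE 0.37, limma adjusted p = 0.00408).

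Nidogens link laminin to collagen IV in basement membranes. Nid1 had 1444, 841 and 912 against 192, 145 and 89 (log2 fold change 2.92, SE 0.36, limma adjusted p = 0.00203). Nid2 had 394, 189 and 318 against 47, 34 and 19 (log2 fold change 3.16, SE 0.46, limma adjusted p = 0.00435). Nid2 overlaps 2700060E02Rik on the opposite strand, which had 161, 396 and 261 against 465, 358 and 421, so its values are uncertain. Both nidogens were higher in every Col6a1+ library than in any Col6a1- library.

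Among the intracellular genes, Kank2, which binds talin at the rim of adhesions, had 1100, 369 and 1297 against 158, 86 and 40 (log2 fold change 3.29, SE 0.57, limma adjusted p = 0.0101). The lower genes were Ptk2b, the kinase most related to focal adhesion kinase, and Tns4, a short tensin of epithelium. Ptk2b had 16, 54 and 67 against 139, 293 and 376 (log2 fold change -2.64, SE 0.58, limma adjusted p = 0.029), the opposite direction to Ptk2. Tns4 had 24, 69 and 47 against 169, 262 and 185 (log2 fold change -2.21, SE 0.46, limma adjusted p = 0.0226), the opposite direction to Tns1. The difference in epithelial markers stands beside both, and its part was not tested. With the replicate block over all genes none of the 19 was called, with adjusted p values between 0.0612 and 0.12. In that fit 0% of all genes were called in either direction. All 19 were called with the block over the expressed genes, where 7.26% of expressed genes were called higher and 6.44% lower.

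**Figure D4:**
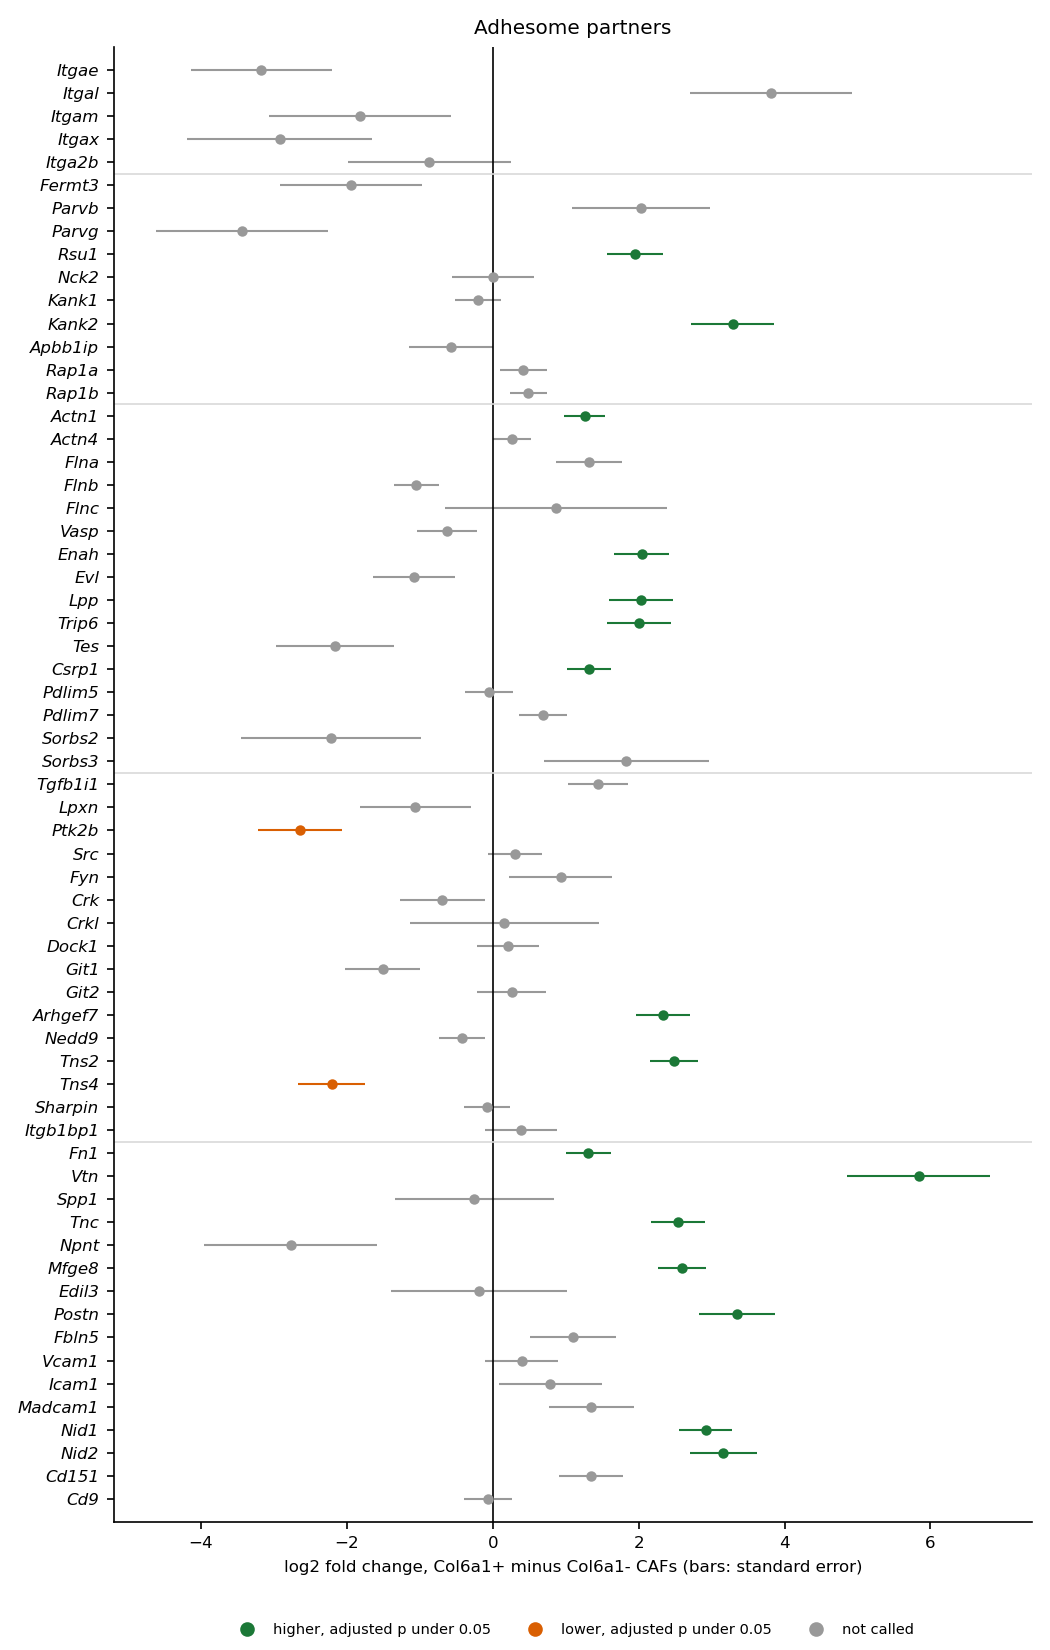
Log2 fold change, Col6a1+ minus Col6a1- CAFs, of the tested adhesome genes outside the 36, other than 1 that is not shown, with bars for the standard error, in the order other integrin subunits, relatives of talin, kindlin and the ILK complex, actin linkers, adaptors and kinases, and ligands. Green marks higher genes and orange the 2 lower genes at an adjusted p under 0.05; Vtn lies farthest right at 5.84.

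Set beside the cell type markers, 10 of the 13 genes that were higher had a log2 fold change above that of the summed fibroblast markers (1.90), which was not exceeded by Itgb1, Ilk and Ptk2, and 0 exceeded that of the summed mural markers (5.08). All 10 mural markers were higher, by 3.65 to 6.53, and 5 of the 8 fibroblast markers were. Single fibroblast markers ranged from 0.01 to 4.28, and of the 13 genes only Itga7 (4.80) lay above that range. Pdgfrb, found on both fibroblasts and mural cells, had 2084, 1329 and 1612 against 115, 89 and 58, while Pdgfra, a fibroblast marker, had 1145, 1253 and 808 against 347, 233 and 203. Among endothelial markers, Pecam1, the CD31 of the gate, had 0, 21 and 27 against 13, 64 and 44, and Esam, with 943, 971 and 1125 against 54, 93 and 38, was the only 1 of the 10 that was higher. The share of perivascular cells in the values of Itga1, Itga7, Itga4 and Itgb3 was not tested.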

How the data were processed

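Libraries of 3′ mRNA (QuantSeq, Ion Proton) from sorted Col6a1+ and Col6a1- CAFs, 3 each, were grouped by their labels. The authors mapped reads to mm10 with TopHat2 and Bowtie2, counted them per gene and normalized them with DESeq through metaseqR. The deposited values used here are the log2 of the normalized count plus 1, and 100% of the 297288 values were whole normalized counts within 1e-06. The depth in reads before normalization is not given in the sources used here, nor is whether the counting used strand, so values of the 19 of the 36 genes, and 26 of the 65 adhesome genes, that overlap another annotated gene are uncertain. The deposited p-values, false discovery rates and fold changes of the authors, and 6 further columns of per-sample values, were not used.

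The groups were compared with limma 3.58.1 in R 4.3.3 (lmFit, then eBayes along the mean-variance trend, with 4 residual and 6.48 prior degrees of freedom) in the 26402 genes whose normalized counts summed to 1 or more, without a block. Genes were called at a Benjamini-Hochberg adjusted p under 0.05 over all genes tested. On simulated counts of 25095 genes for this comparison, 143 of 200 genes changed 8-fold were recovered (71.5%), with 0 false calls. Tables and figures were made with Python 3.11.15, pandas 2.3.3, NumPy 2.4.6 and Matplotlib 3.10.9.

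The replicate numbers come from the sample titles. Over the 13515 genes that averaged 10 or more normalized counts, the deviations of Col6a1+ and Col6a1- libraries with the same number from their group means correlated at 0.245, 0.125 and 0.144, and those with different numbers at -0.245 to 0.15. All same-number values were over 0.1, and blocked values are given for this reason. Col6a1+ replicate 2 and Col6a1- replicate 3 also correlated at 0.15, above the 0.125 and 0.144 of same numbers. The correlations therefore cannot decide whether the numbers mark pairs. Whether both sorts of a number share a pool of mice is not given in the sources used here, and p-values measure only the spread between these samples, which may be technical.

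All 36 genes are described. Of the other 65 adhesome genes, those with an adjusted p under 0.05 are named, at most 8 in each direction by log2 fold change, except 1 that is counted but not reported here, and of the markers only sums and defining genes; Pelo, Gm42957, Gm10157, Gm2415, 2700060E02Rik, Mettl7b, Cerkl, Creb3, Taf10, Ap3m1, Esam, Itgal, Tns2 and Sorbs2 were named after their values were seen. The 36 genes and all lists were chosen with earlier results of these data known. A second row named Itgam was left out, since the reference names it otherwise. Alternatives were library size alone, median centring, other filters, pseudocounts of 0.1 and 10, no trend, the replicate block, leaving out each library, and an unadjusted criterion. A value of 0 allows up to 3 counts. Coordinates are those of the deposited table, and promoters are from RefSeq.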

Additional observations from a re-analysis of the deposited data

How the results depend on the processing

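No gene called among the 36 changed sign under any alternative, and library size alone, median centring, both filters on the mean or on every library and both pseudocounts moved no count of calls by more than 1.5 times, other than 1 lower adhesome gene in place of 2 with a pseudocount of 0.1. Among the 36 genes, the count of higher calls, 13, became 0 with no filter, 7 with no mean-variance trend, 0 with the replicate block and 0 to 17 when 1 library was left out. The count of lower calls, 2, became 0, 1, 0 and 0 to 4 in the same order, with 4 under the block over the expressed genes and 7 by a criterion of unadjusted p (under 0.05) and log2 fold change (over 1 in size). With no filter, 18 higher and 5 lower genes had an unadjusted p under 0.05. With the replicate block over all genes, 0% of all genes were called in either direction, and likewise without Col6a1+ replicate 1 over all genes. No share over all genes is at hand for the counts with no filter, with no mean-variance trend or by the unadjusted criterion. The same holds for the counts with a pseudocount of 0.1 and for those without any library other than Col6a1+ replicate 1. For the 65 adhesome genes, the count of 17 higher calls became 0, 8, 0 and 0 to 20, and that of 2 lower calls became 0, 0, 0 and 0 to 3, with 4 under the block over the expressed genes and 9 by the unadjusted criterion. Over all genes, 0 of the 36 were called without Col6a1+ replicate 1, 2 or 3 or Col6a1- replicate 1, 2 without Col6a1- replicate 2 and 1 without Col6a1- replicate 3. Leaving out 1 library over the expressed genes, added after seeing the data, called 8 to 17 higher and 2 to 4 lower of the 36. Without Col6a1+ replicate 1, 7.98% of expressed genes were called higher and 8.28% lower.

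The median log2 fold change of the 35 tested genes, 0.67, was 1.49 over the expressed genes, with or without the block, 1.61 over genes with at least 10 in every library, and 0.58 to 1.35 when 1 library was left out. Itga5 (-0.32) was 0.34 with a pseudocount of 10 and -1.68 to 2.35 when 1 library was left out, Tln2 (-0.30) was 0.45 and -1.57 to 1.88, and Lims2 (0.24) was -1.09 to 1.69 when 1 library was left out. The cause of these changes was not tested. With 3 libraries a group and 26402 genes tested, genes with few counts, such as Itga2, Itga8, Itgb2, Itgb7 and Lims2, cannot be placed in either direction.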

Other observations

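Itgal, the alpha L chain of the leukocyte receptor LFA-1, was chosen after its values were seen. It had 60, 10 and 56 normalized counts in Col6a1+ libraries and 0, 1 and 6 in Col6a1- libraries, so that the groups did not overlap, and it did not pass the test (log2 fold change 3.81, SE 1.11, limma adjusted p = 0.0883). Its only known partner, Itgb2, was at 0 in every Col6a1+ library, and Ptprc was at 0, 2 and 0 there. The leukocyte markers summed to 74 to 85 in Col6a1+ and to 220 to 391 in Col6a1- libraries, and none of the 11 passed the test. The part of leukocytes in the values of Itgal was not tested.

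Genes at or below 3 normalized counts in Col6a1+ replicate 1 but at 20 or more in each other library made up 3 of the 24 eligible genes among the 36 (Itga5, Fermt1 and Tln2, 12.5%) and 1 of 44 among the other adhesome genes (Sorbs2, 2.27%), beside 4.66% of all genes.

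Within the tensin family, Tns1 (3.64) and Tns2 (2.49) were higher and Tns4 (-2.21) lower in Col6a1+ CAFs, and Tns3 (-1.10) did not pass the test. Within the focal adhesion kinase family, Ptk2 (1.60) was higher and Ptk2b (-2.64) lower. All are log2 fold changes in the limma fit over all genes.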
